A study of Homo sapiens with 6 samples.

Results

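NRF2, encoded by NFE2L2, is the transcription factor that switches on the cell's defence against oxidants and electrophiles, and the 38 genes described here are NFE2L2, its sensor KEAP1, well-known NRF2 targets and the core antioxidant enzymes. They were listed by name, and each was read at the probe set annotated to that symbol alone that had the highest mean over all 6 arrays. That left 35 of the 38 among 18132 genes read in the same way. SOD2 was not used because its 4 probe sets were annotated to SOD2 and SOD2-OT1 together, and PRDX5 and FTH1 were not analysed here.

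The 6 Affymetrix arrays held total RNA of A375, a human melanoma cell line. Of these, 3 were of A375 cells with MAP4K5 stably knocked down by a short hairpin RNA (knockdown) and 3 of A375 cells without it (control). MAP4K5 belongs to the germinal centre kinases. All cultures were grown without treatment in DMEM with serum and antibiotics. The labels call the arrays of each group biological replicates without saying how the cultures were separated, so each p-value reflects only array-to-array spread, which may be technical. The sources do not say if the controls had a vector of their own or if the knockdown line was 1 clone. The hairpin, the making of the line and the loss of MAP4K5 cannot be told apart. Levels are RMA intensities on a linear scale, and fold changes are log2 differences, knockdown minus control, with the standard error (SE) of the limma fit. A gene was called at a Benjamini-Hochberg adjusted p under 0.05 over all 18132 genes.

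In resting cells KEAP1 holds NRF2 for ubiquitination by a cullin ligase and degradation. Oxidants or electrophiles that modify KEAP1 let NRF2 accumulate, pair with a small MAF protein and bind antioxidant response elements in its target genes. The targets make glutathione and thioredoxin, regenerate both with NADPH, and detoxify quinones, carbonyls and peroxides. NRF2 activity is set largely at the level of the protein, so NFE2L2 mRNA is a poor measure of it.

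The promoters of 4 genes are shown because the results below turn on them: ME1 and AKR1C2, which were lower in knockdown cells, and GCLM and TXNRD1, which were far higher in 1 control array than in the others. Each is the window from 250 bases before to 50 bases after the start of the gene, from RefSeq on GRCh38.p14, printed 5′ to 3′ on the gene's strand. Capitals mark the core of the antioxidant response element, TGACNNNGC, on either strand. A match on the opposite strand appears here as its reverse complement. The ME1 window is chr6:83431002-83431301 (minus strand), that of AKR1C2 chr10:5003808-5004107 (minus), that of GCLM chr1:93909381-93909680 (minus) and that of TXNRD1, the first of 2 listed, chr12:104215529-104215828 (plus).
ME1: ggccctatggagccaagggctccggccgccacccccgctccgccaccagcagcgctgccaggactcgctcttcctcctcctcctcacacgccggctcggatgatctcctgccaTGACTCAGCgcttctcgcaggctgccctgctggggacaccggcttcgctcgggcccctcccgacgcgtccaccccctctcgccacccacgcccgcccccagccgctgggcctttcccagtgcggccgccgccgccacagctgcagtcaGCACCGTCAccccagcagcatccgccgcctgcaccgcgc
AKR1C2: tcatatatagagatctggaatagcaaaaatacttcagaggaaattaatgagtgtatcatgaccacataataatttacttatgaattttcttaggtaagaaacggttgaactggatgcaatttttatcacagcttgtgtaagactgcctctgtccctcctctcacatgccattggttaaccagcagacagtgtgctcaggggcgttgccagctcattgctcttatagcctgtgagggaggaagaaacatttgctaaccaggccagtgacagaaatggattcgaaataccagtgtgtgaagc
GCLM: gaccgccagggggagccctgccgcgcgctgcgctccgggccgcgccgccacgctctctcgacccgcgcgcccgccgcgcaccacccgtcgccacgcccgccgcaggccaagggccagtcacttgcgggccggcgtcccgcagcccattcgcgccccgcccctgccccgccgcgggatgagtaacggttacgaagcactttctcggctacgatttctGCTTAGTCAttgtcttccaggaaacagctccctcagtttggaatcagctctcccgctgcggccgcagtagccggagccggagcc
TXNRD1: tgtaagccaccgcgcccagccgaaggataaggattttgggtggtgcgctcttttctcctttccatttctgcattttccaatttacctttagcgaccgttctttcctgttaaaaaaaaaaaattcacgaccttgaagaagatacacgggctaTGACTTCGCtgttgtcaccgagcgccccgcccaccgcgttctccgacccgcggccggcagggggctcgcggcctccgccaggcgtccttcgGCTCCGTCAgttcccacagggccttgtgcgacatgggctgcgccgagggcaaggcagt
The ME1 window holds 2 matches, the one 137 bases before the start being TGACTCAGC, which also contains the AP-1 motif TGACTCA. GCLM has 1 match, 34 bases before the start, and TXNRD1 has 2, while the letters do not occur in the AKR1C2 window. RefSeq windows were found for 29 of the 38 genes, in 43 windows, and 9 of these (20.9%) hold the motif, as do 13.3% of all 35116 windows. With an A after it the motif stands in 6 of the 43 windows (14%), those of GCLM, GPX2, GSTP1, KEAP1, MGST1 and TXNRD1, and in 3.18% of all windows. For TXNRD1 it stands in the other window listed, not in the one printed above. Windows of 1 gene can overlap, and these letter matches describe sequence only.

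MAP4K5 itself measured 19.7, 18.8 and 20.3 in knockdown cells and 77.7, 78.1 and 76.3 in control cells (log2 -1.98 ± 0.08 SE, limma adjusted p = 2.9e-05). Control replicate 2 stood apart from the other controls: across genes it correlated with them at 0.992, below their 0.997 with each other, and with the knockdown arrays at 0.993 to 0.994. Integrated stress response markers moved with that split. The 10 markers, all measured, stood on average 1.16 and 1.24 above the mean of the 6 arrays (log2) in controls 1 and 3. Control 2 had -0.55, while the knockdown arrays ranged from -0.67 to -0.59. Their summed level was 2033 to 2067 in knockdown cells and 2395 to 5895 in control cells, control 2 being the lowest control. Among melanocytic markers MITF, SOX10, PAX3 and S100B were above the median gene level of 8.68, as was TFAP2A, whereas the pigment genes PMEL, MLANA, TYR and TYRP1 lay between 2.34 and 3.90 in every array, and DCT was not read. MITF rose (0.99), and SOX10 (-0.54) and S100B (-1.31) fell, by the same limma test. In the fits without 1 array S100B was called in all 6, MITF in 3, and SOX10 in 1, that without control 2. The 5 epithelial, 5 fibroblast and 5 endothelial markers had means below the median gene, as had the 4 leukocyte markers, whose summed level was 17.9 to 18.6 in knockdown cells and 11.9 to 14.2 in control cells and which include LYZ, called upwards (log2 0.97 ± 0.13, limma adjusted p = 0.00491). PTPRC, CD3E and CD14 lay between 1.92 and 3.15. The part of these markers in the results below was not tested.

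Few of the 35 genes were called. Malic enzyme ME1 and the aldo-keto reductase AKR1C2 fell, and 33 were not called. The call rate of 2 in 35 (5.71%) lies below that of all genes, of which limma called 7.83%, 3.7% upwards and 4.13% downwards, and is no result about the group as such. All of the 35 but GPX2, GPX3, HMOX1, AKR1B10 and AKR1C1 lay above the median gene, so shares over all genes are not matched for level. With the lowest 50% of genes left out, GPX2, GPX3, HMOX1, AKR1B10 and AKR1C1 dropped out. Of the genes kept, limma called 4 of the listed genes and 1633 of all genes, a lower share of the listed genes. At an unadjusted p under 0.05 there were 12 of 35, against 4256 of 18132 genes. Knockdown and control arrays did not overlap in 16 of the 35, of which 8 were higher and 8 lower in knockdown cells, while 28.1% of all genes had groups apart, 14.9% higher and 13.2% lower. The median log2 fold change was 0.09 over the 35 genes and 0.01 over all genes, and the median absolute log2 fold change was 0.19 over the 35 genes and 0.12 over all genes.

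**Figure D1:**
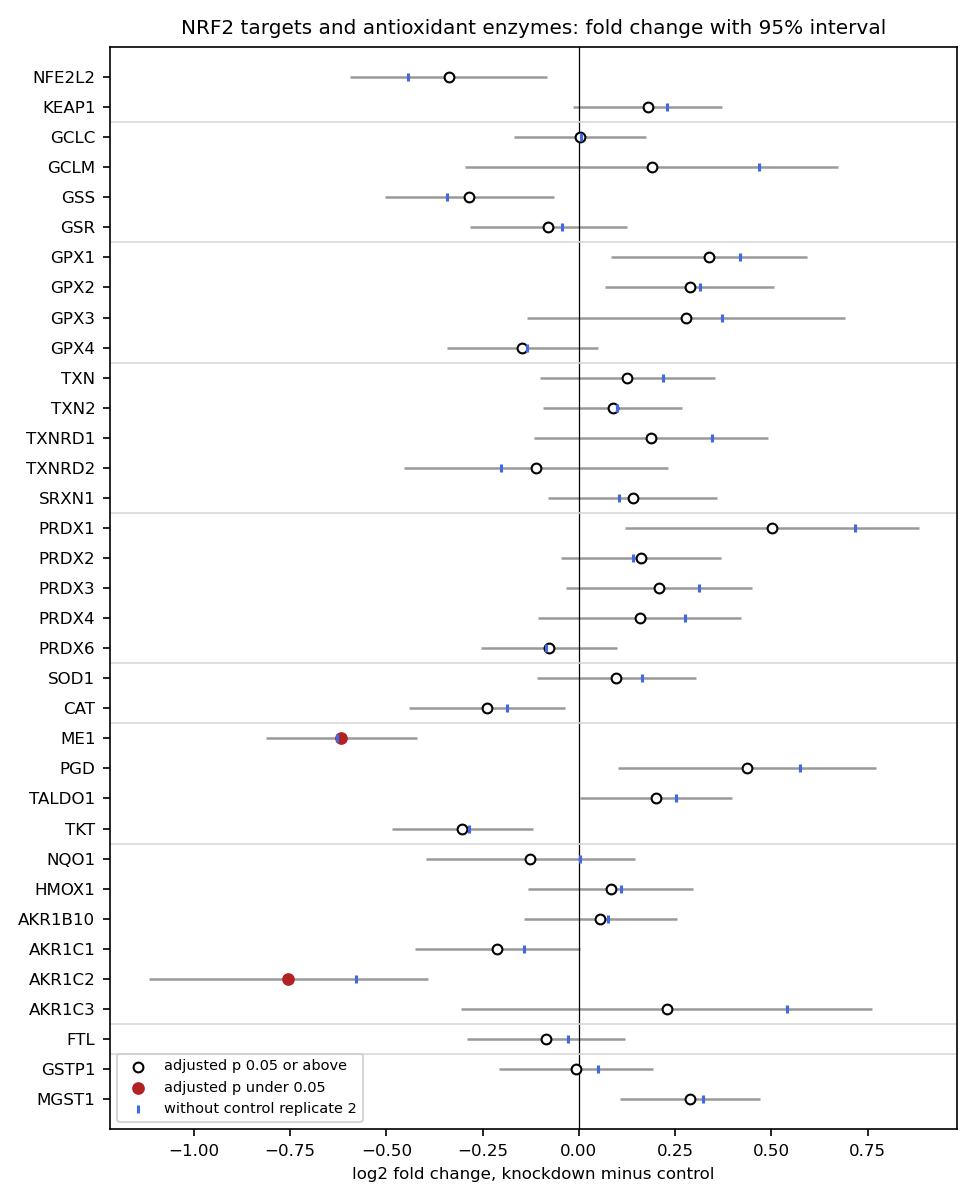
Log2 fold change, knockdown minus control, of the 35 genes in the order of their roles; circles are the limma estimates over 3 arrays per group, lines their 95% intervals, and blue ticks the estimates without control replicate 2. ME1 (-0.62) and AKR1C2 (-0.75) are the called genes, and PRDX1 has the highest estimate (0.50).

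Without control replicate 2, 13 of the 35 were called (37.1%), 8 upwards and 5 downwards, where 20.6% of all genes were, 10.5% upwards and 10.1% downwards. The additional upward calls were PRDX1, PGD, AKR1C3, GCLM, GPX1, TXNRD1, MGST1 and PRDX3, and the additional downward calls NFE2L2, GSS and TKT. ME1 and AKR1C2 were called in both fits. With all 6 arrays TKT and MGST1 were called under several other settings, given in the closing section, and NFE2L2, GSS, GPX1, PRDX1 and PGD with array weights. All 13 are given array by array below.

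Control 2 was often the highest control for these 35 genes. It was above both controls 1 and 3 in 24 of the 35 genes (68.6%), against 35.6% of all genes, and below both in 4 (11.4%), against 37.5% of all genes. In 13 of the 35 (37.1%) it was the highest of all 6 arrays, as in 15.1% of all genes. The median difference of control 2 from the mean of controls 1 and 3 was 0.15 on the log2 scale over the 35 genes and -0.01 over all genes. The 66 measured genes of the other pathway list described below did not share this when pooled. Control 2 was above both other controls in 23 of them (34.8%) and below both in 31 (47%), with a median difference of -0.05. That list was mixed, from ABCC2 (0.69), RBX1 (0.49) and CBR1 (0.42) above to CTH (-2.63), TXNIP (-2.27) and SESN2 (-2.18) below. For its NADPH, quinone and carbonyl enzymes the median log2 deviation from the 6-array mean was highest in control 2, at 0.09, with 0.07 in control 3. The mean deviation had the other order, at 0.08 in control 2 and 0.10 in control 3. These are descriptions of 1 array, with no test. Of the 35 genes, those farthest above were AKR1C3 (0.94), GCLM (0.84), PRDX1 (0.64), AKR1C2 (0.53), TXNRD1 (0.48), PGD (0.41) and NQO1 (0.38).

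**Figure D2:**
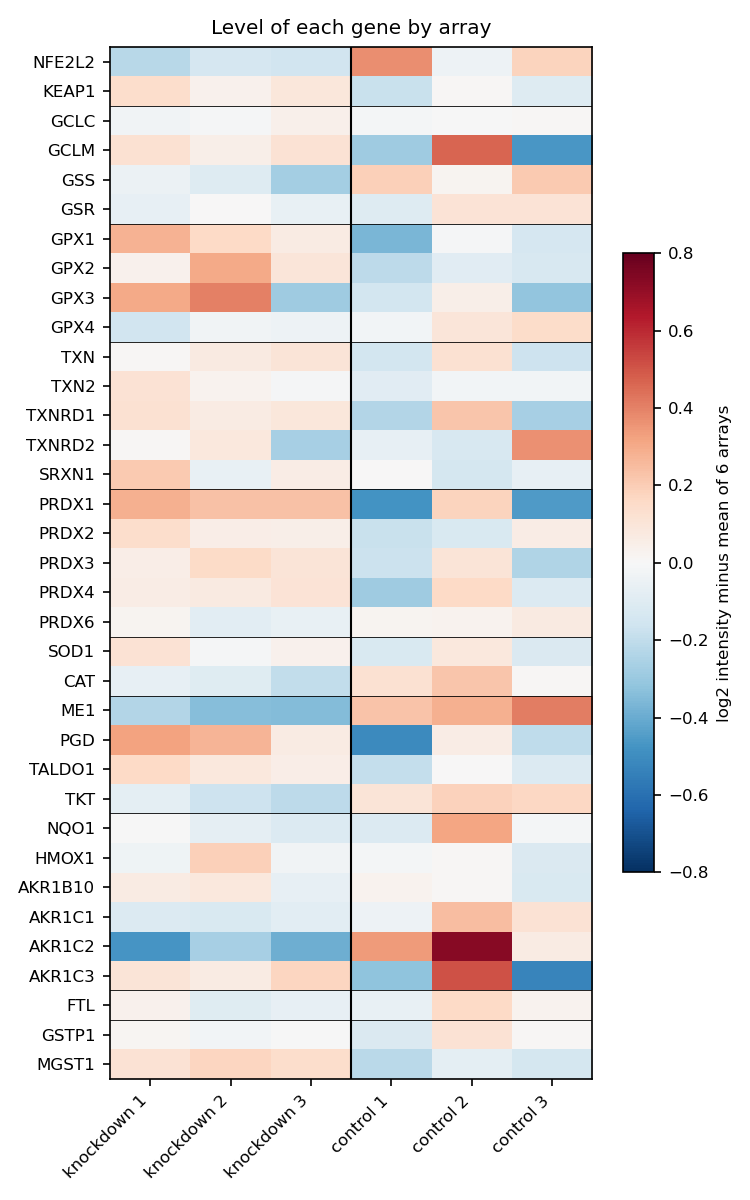
Log2 intensity of each of the 35 genes minus its mean over the 6 arrays, with knockdown arrays left and control arrays right of the vertical line and horizontal lines between roles. The column of control 2 is the highest of the 6 in 13 genes, and ME1 is lower in all 3 knockdown arrays than in any control.

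The sensor and its transcription factor were each apart between the groups at the brightest probe set without being called. NFE2L2 measured 317, 336 and 332 in knockdown cells, against 478, 358 and 418 in control cells. All knockdown arrays lay below all controls, but the gap to control 2 was small. The log2 fold change was -0.34 ± 0.11 (SE, limma adjusted p = 0.11) and stood at -0.44 (adjusted p = 0.0103) without control 2. A second NFE2L2 probe set gave -0.32, but its groups overlapped, with control 2 at 95.7 and the knockdown arrays at 89.8 to 101.8. KEAP1, the adaptor that targets NRF2 for degradation, measured 77.7, 72.2 and 75.0 in knockdown cells and 62.3, 70.9 and 65.6 in control cells. Here too the groups did not overlap, by a narrow margin at control 2 (log2 0.18 ± 0.08, limma adjusted p = 0.251). In bulk RNA, less of a transcript per cell and fewer cells holding it cannot be told apart.

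Glutathione is made by glutamate-cysteine ligase, with its catalytic subunit GCLC and its modifier subunit GCLM, and by glutathione synthetase, GSS. None of the 4 glutathione synthesis and reduction genes was called. GCLM, a standard NRF2 target, measured 59.5, 56.6 and 59.3 in knockdown cells, against 45.02, 75.6 and 39.6 in control cells. The knockdown arrays lay between control 2 and the other controls, so the fold change of 0.19 ± 0.21 (SE, limma adjusted p = 0.661) became 0.47 (adjusted p = 0.00766) without control 2, and was -0.37 against control 2 alone. GCLC at its brightest probe set ranged from 37.7 to 39.5 in knockdown cells and from 37.9 to 38.6 in control cells, with a fold change of 0.0035 and a 95% interval of -0.17 to 0.17. Its dimmer probe sets gave 0.28, 0.32 and -0.12, none of them called, and in the pair with positive estimates control 2 was the highest control, at 12.4 and 13.2, as for GCLM. GSS measured 60.5, 58.2 and 51.8 in knockdown cells and 71.4, 63.6 and 72.5 in control cells. Every knockdown array was below every control (log2 -0.28 ± 0.10, limma adjusted p = 0.117; -0.34 and adjusted p = 0.0341 without control 2), and the second probe set gave -0.31. GSR, which reduces oxidised glutathione, stood at -0.08 with overlapping groups, at 103 to 107 in knockdown cells and 99.97 to 116 in control cells.

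Glutathione peroxidases reduce peroxides with glutathione. GPX1, the main cytosolic form, measured 941, 867 and 814 in knockdown cells and 602, 772 and 707 in control cells. Its groups did not overlap, and the fold change was 0.34 ± 0.11 (SE, limma adjusted p = 0.109), or 0.42 (adjusted p = 0.0253) without control 2. Both GPX1 probe sets end in _x_at, a mark of probes that can bind other transcripts, and gave 0.34 and 0.37. GPX4, which reduces lipid hydroperoxides and guards against ferroptosis, was 337 to 366 in knockdown cells and 368 to 414 in control cells, apart but not called (-0.15 ± 0.09). GPX2 and GPX3 lay between 2.36 and 3.88 in every array, below the median gene, where RMA compresses differences.

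The thioredoxin system carries electrons from NADPH through thioredoxin reductase to thioredoxin and peroxiredoxins. Of its 5 genes none was called. TXNRD1, the cytosolic reductase, measured 557, 535 and 544 in knockdown cells, against 434, 598 and 425 in control cells. As for GCLM, control 2 was above and the other controls below all knockdown arrays, and the fold change was 0.19 ± 0.13 (SE, limma adjusted p = 0.457), 0.35 (adjusted p = 0.0152) without control 2 and -0.13 against control 2 alone. The 2 dimmer TXNRD1 probe sets gave -0.17 and -0.05, opposite in sign to the brightest. TXN (0.13), TXN2 (0.09), the mitochondrial reductase TXNRD2 (-0.11) and sulfiredoxin SRXN1 (0.14), which repairs overoxidised peroxiredoxins, were not called in either fit. TXN ranged from 2213 to 2359 in knockdown cells and from 1958 to 2389.9 in control cells. For TXN2 the ranges were 123 to 133 in knockdown and 116 to 121 in control cells, apart by a narrow margin. Those of TXNRD2, 34.6 to 44.2 in knockdown and 38.1 to 53.5 in control cells, and of SRXN1, 99.1 to 119.7 in knockdown and 93.7 to 103 in control cells, overlapped.

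Peroxiredoxins are thiol peroxidases fed mostly by thioredoxin. PRDX1, an NRF2 target, had the largest positive estimate of the 35 genes, with 1883, 1816 and 1822 in knockdown cells and 1110.0, 1750.4 and 1131 in control cells. Controls 1 and 3 were far below the knockdown arrays, while control 2 came close to them. The log2 fold change was 0.50 ± 0.17 (SE, limma adjusted p = 0.11), with 0.72 (adjusted p = 0.00062) without control 2, and it was 0.07 against control 2 alone. PRDX3, the mitochondrial form, measured 910.3, 976 and 942 in knockdown cells and 777, 941 and 743 in control cells, overlapping at control 2 alone (0.21 ± 0.10, limma adjusted p = 0.281; 0.31 and adjusted p = 0.0281 without control 2). PRDX4, the form of the endoplasmic reticulum, and PRDX2 stood at 0.16 each and were called in neither fit. PRDX4 ranged from 269 to 279 in knockdown cells and from 213 to 288 in control cells, and PRDX2 from 353 to 376 in knockdown cells and from 302 to 356 in control cells, so both overlapped. The probe sets of PRDX6, which uses glutathione, disagreed: the brighter pair gave -0.08 and -0.06, and the dimmer pair 0.35 and 0.34, none of them called. The brightest ranged from 1202 to 1292 in knockdown cells and from 1292 to 1337 in control cells.

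Of the enzymes that remove superoxide and hydrogen peroxide directly, the cytosolic dismutase SOD1 ranged from 1023 to 1115 in knockdown cells and from 946 to 1092 in control cells (0.10 ± 0.09). Catalase, CAT, ranged from 107 to 117 in knockdown cells and from 124 to 143 in control cells. The CAT groups did not overlap at this brighter probe set but did at the dimmer. The probe sets gave -0.24 and -0.23 (limma adjusted p = 0.148 at the brighter).

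At the brightest probe set, knockdown and control arrays were apart in all 4 NADPH supply genes, 2 higher and 2 lower, and 1 was called. Of all genes, read in the same way, 28.1% were apart and 7.83% called. For PGD the margin was narrow and its second probe set overlapped. ME1, cytosolic malic enzyme, which makes NADPH from malate, measured 59.3, 55.1 and 54.7 in knockdown cells and 81.8, 85.0 and 92.7 in control cells. All knockdown arrays lay well below all controls, and control 2 fell between the other 2. Group means were 56.4 ± 2.5 in knockdown and 86.5 ± 5.6 in control cells (SD, n = 3 each), a 1.53-fold decrease (log2 -0.62 ± 0.09 SE, limma adjusted p = 0.00613). The second ME1 probe set gave -0.52 and was also called (adjusted p = 0.0113 over probe sets, of which 4.48% were called, 1.98% upwards and 2.5% downwards). ME1 kept its call in each of the 6 fits that left out 1 array, from -0.66 to -0.57, and in all other alternatives run.

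The estimates of the pentose phosphate pathway genes differed in sign. PGD, phosphogluconate dehydrogenase, which yields NADPH, measured 56.8, 55.0 and 47.6 in knockdown cells, against 31.9, 47.4 and 39.6 in control cells. Knockdown replicate 3 and control 2 were almost equal, and the fold change was 0.44 ± 0.15 (SE, limma adjusted p = 0.113), or 0.57 (adjusted p = 0.0129) without control 2. The second PGD probe set, almost as bright, gave 0.41. Its groups overlapped, with knockdown replicate 3 at 43.7 and control 2 at 49.5. Transketolase, TKT, of the non-oxidative branch, measured 650, 612 and 596 in knockdown cells and 737, 783 and 770.3 in control cells. Its groups were clearly apart, including control 2, and it narrowly missed the threshold (-0.30 ± 0.08, limma adjusted p = 0.0556), which it passed without control 2 (adjusted p = 0.044) and under 6 alternatives listed in the closing section. Another, dim TKT probe set gave 0.55, not called, so that the mean of all TKT probe sets was 0.0086. TALDO1, transaldolase, was higher in all 3 knockdown arrays, at 312 to 336 against 263 to 301 in control cells, and was not called (0.20 ± 0.09).

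**Figure D3:**
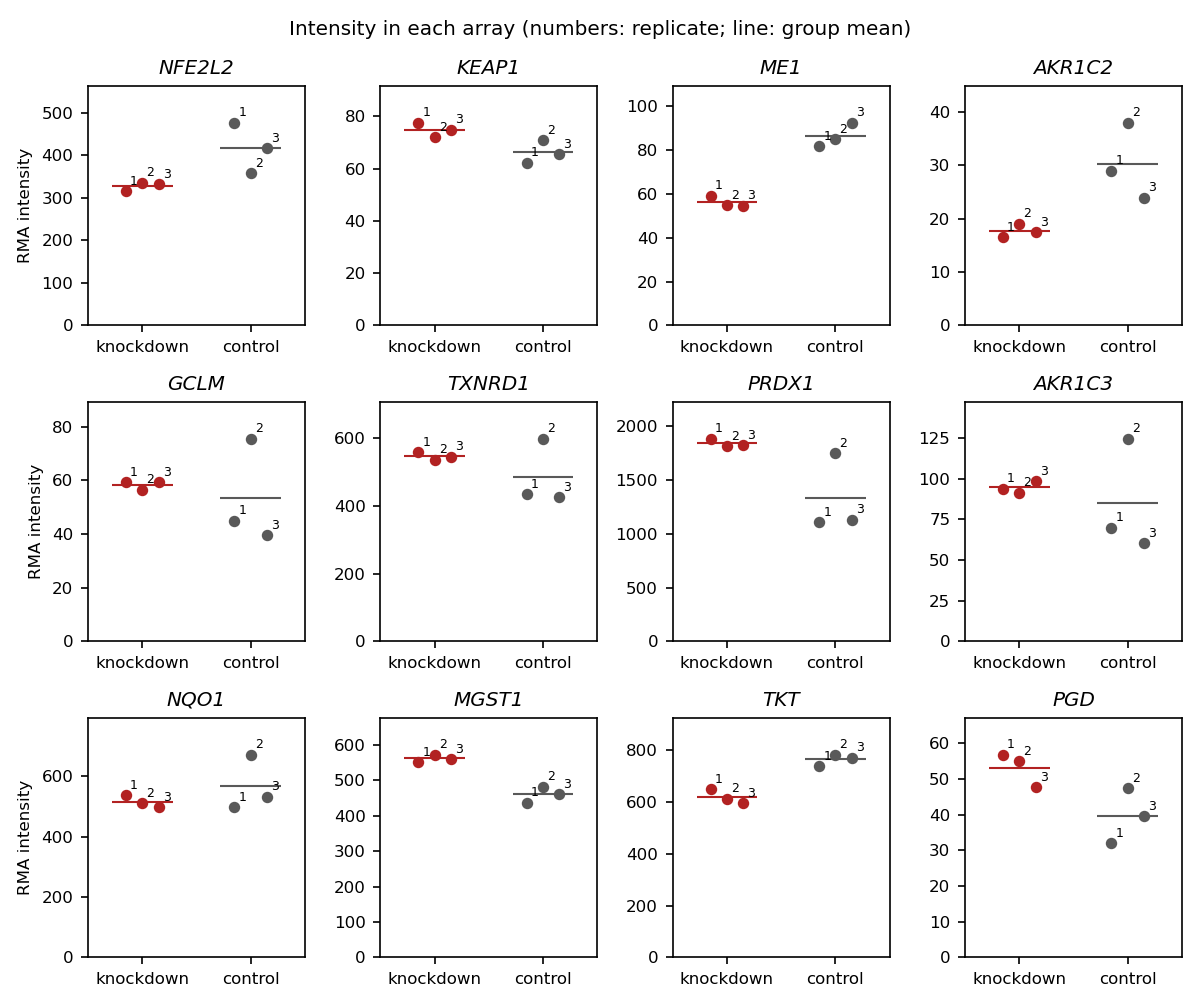
RMA intensity in each array of 12 genes, knockdown left and control right, with replicate numbers at the points and group means as lines; axes start at 0. ME1, TKT and MGST1 separate the groups with control 2 on the side of the other controls. In GCLM, TXNRD1, AKR1C3, NQO1, AKR1C2 and TKT control 2 is the highest array.

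NQO1, the quinone reductase most used as a readout of NRF2, measured 537, 512 and 498 in knockdown cells and 498, 671 and 532 in control cells. Control 2 was the highest array and the others overlapped. The fold change was -0.13 ± 0.12 (SE, limma adjusted p = 0.59), with a 95% interval of -0.40 to 0.15, and 0.0020 without control 2. HMOX1, heme oxygenase, was dim in all arrays, at 6.75, 7.90 and 6.78 in knockdown cells and 6.85, 6.97 and 6.38 in control cells. It lay below the median gene of 8.68 and its groups overlapped (0.08 ± 0.09, limma adjusted p = 0.663; 95% interval -0.13 to 0.30).

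Aldo-keto reductases reduce carbonyls and steroids with NADPH. AKR1C2 measured 16.5, 19.1 and 17.5 in knockdown cells, against 29.0, 38.03 and 24.0 in control cells. Knockdown arrays were below all controls, and control 2 was the highest. Group means were 17.7 ± 1.3 in knockdown and 30.3 ± 7.1 in control cells (SD, n = 3 each), a 1.69-fold decrease (log2 -0.75 ± 0.16 SE, limma adjusted p = 0.0282). The estimate ran from -0.91 to -0.58 over the fits without 1 array, and the call held only without control 2 or control 3: the adjusted p was 0.0878 without control 1 and 0.0838 to 0.124 without 1 knockdown array. The call was also lost on log2(intensity + 16), at -0.45 (limma adjusted p = 0.0843). Of the 3 AKR1C2 probe sets 1 was called, the dim others gave -0.27 and -0.07, and the mean of all probe sets was -0.37 (limma adjusted p = 0.0419).

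AKR1C3, of the same gene cluster, had another order of arrays. It measured 93.9, 91.4 and 98.7 in knockdown cells and 69.9, 124.7 and 60.6 in control cells, so control 2 was highest and the other controls lowest of all arrays. The fold change was 0.23 ± 0.23 (SE, limma adjusted p = 0.626), 0.54 (adjusted p = 0.00502) without control 2 and -0.40 against control 2 alone. AKR1C1 and AKR1B10 lay between 2.86 and 3.78 in every array, below the median gene, and neither was called. AKR1C1, AKR1C2 and AKR1C3 are related in sequence, and probes could bind transcripts of more than 1 of them. Their identity was not computed here.

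Ferritin light chain, FTL, which stores iron, ranged from 2012 to 2202 in knockdown cells and from 2063 to 2403 in control cells, and its 8 probe sets, all ending in _x_at or _s_at, gave -0.14 to -0.07. The glutathione transferase GSTP1 was level, at 523 to 536 in knockdown cells and 489 to 576 in control cells, with a 95% interval of -0.21 to 0.19. MGST1, the microsomal glutathione transferase, measured 551, 572 and 560.4 in knockdown cells and 437, 482 and 461 in control cells. At this probe set all knockdown arrays lay above all controls, control 2 included, and the fold change just missed the threshold (0.29 ± 0.08 SE, limma adjusted p = 0.0647). The other MGST1 probe sets gave 0.35 and 0.31, and at the dimmest of them control 2, at 247, overlapped the knockdown arrays, at 230 to 257.

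A list of 75 other NRF2 pathway and antioxidant genes was read alongside, of which 66 were measured. Of these 4 rose and 3 fell (10.6% called, against 7.83% of all genes), with a median log2 fold change of -0.06. Of 11 measured partners and regulators of NRF2, 2 fell and 9 were not called. BTRC, a ubiquitin ligase adaptor that can target NRF2 apart from KEAP1, measured 14.6, 11.2 and 14.2 in knockdown cells and 18.3, 18.7 and 20.3 in control cells (log2 -0.53 ± 0.12 SE, limma adjusted p = 0.0329). GSK3B, the kinase that marks NRF2 for that ligase, measured 90.5, 84.3 and 94.4 in knockdown cells and 126.7, 107.9 and 131.7 in control cells (-0.44 ± 0.10, limma adjusted p = 0.0364). Both were apart between the groups. BTRC was -0.22 and not called once the _s_at and _x_at probe sets were dropped, and the second GSK3B probe set gave -0.05. Each kept its call only without control 2 among the fits without 1 array.

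Among the NADPH and carbonyl enzymes IDH1, cytosolic isocitrate dehydrogenase, another source of NADPH, was the 1 of 17 called. It measured 71.1, 71.5 and 74.6 in knockdown cells and 128.7, 101.1 and 148.0 in control cells (log2 -0.78 ± 0.13 SE, limma adjusted p = 0.0138), with no overlap. All 3 IDH1 probe sets were called, at -0.88 to -0.78, and among the fits without 1 array the call held only without control 2 or 3. Of the 18 thiol and peroxide enzymes 3 rose. SESN1, a stress-inducible protein of the sestrin family, measured 37.5, 38.04 and 35.4 in knockdown cells and 24.7, 26.5 and 24.2 in control cells (0.56 ± 0.08, limma adjusted p = 0.00712). It was called in all 6 fits without 1 array, but its dimmer probe set gave 0.07 and the mean of both 0.32, not called (limma adjusted p = 0.0995). The glutaredoxins GLRX5, which serves iron-sulfur cluster assembly, at 0.57 ± 0.10 (limma adjusted p = 0.016), and GLRX, at 0.31 ± 0.08 (limma adjusted p = 0.0447), kept their calls only without control 2 among the fits without 1 array.

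**Figure D4:**
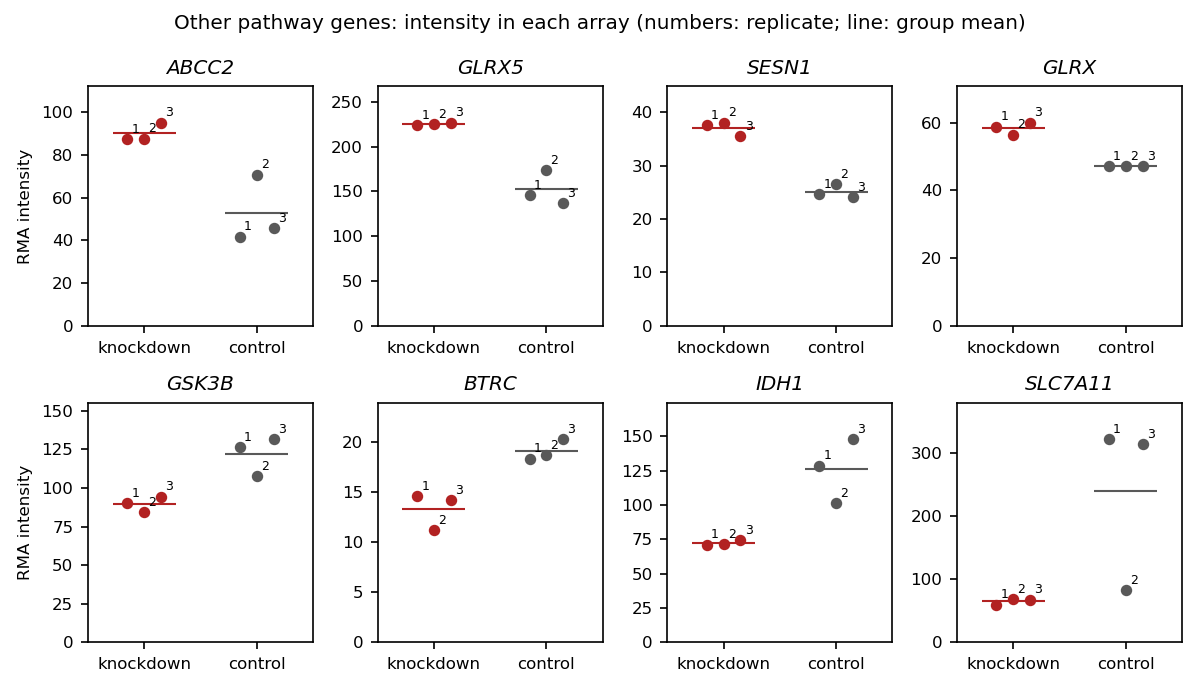
RMA intensity in each array of the 7 called genes of the other pathway list and of SLC7A11, knockdown left and control right, with replicate numbers at the points and group means as lines; axes start at 0. Control 2 lies nearest the knockdown arrays in ABCC2, GLRX5, SESN1, GSK3B, IDH1 and SLC7A11.

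Of 20 genes of cystine uptake and glutathione use 1 was called. ABCC2, an exporter of glutathione conjugates, measured 87.3, 87.6 and 95.1 in knockdown cells and 41.8, 70.8 and 45.8 in control cells (log2 0.81 ± 0.18 SE, limma adjusted p = 0.0335). Among the fits without 1 array its call held only without control 2, and its second probe set gave 0.40. SLC7A11, the cystine transporter and a target of both NRF2 and the stress factor ATF4, was chosen here after its values were seen. It measured 59.9, 68.9 and 68.1 in knockdown cells, against 322, 83.4 and 314 in control cells. Control 2 lay close to the knockdown arrays, and the fold change was -1.64 ± 0.45 (SE, limma adjusted p = 0.066), -2.28 (adjusted p = 1.12e-05) without control 2 and -0.35 against control 2 alone. SLC7A11 was not alone on the list: CTH (-1.81), TXNIP (-1.61), SESN2 (-1.18), CHAC1 (-0.86) and SLC3A2 (-0.86), also uncalled, were likewise lower in control 2 than in controls 1 and 3. Of these, SESN2 and CHAC1 are also among the 10 integrated stress response markers. Without control 2, limma called 24 of the 66 (36.4%, against 20.6% of all genes), 8 upwards and 16 downwards. In control 2 SLC7A11 was low against controls 1 and 3, as were the stress response markers. GCLM, TXNRD1 and AKR1C3 were high there, and are among the genes farthest above. Of the 35 genes 24 were above both other controls. GCLC (log2 0.0023 from their mean), HMOX1 (0.08) and SRXN1 (-0.11) were close to them or below. What links these levels was not tested.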

How the data were processed

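The authors deposited linear intensities per probe set. The submitters' processing notes name RMA, without a version. RMA corrects background, quantile-normalizes arrays and summarises probes, and compresses differences of dim probe sets. The table held 49293 probe sets, of which 44988 had 1 symbol, 1832 several and 2473 none; Entrez identifiers changed 0 symbols and 27 were unmatched in RefSeq (GRCh38.p14). Values ran from 1.55 to 6658, with array medians of 4.85 to 4.94, and the number of arrays limits the precision.

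Log2 intensities of 18132 genes, each at its probe set with the highest mean log2 value, were compared by limma 3.58.1 in R 4.3.3 (lmFit and eBayes, no trend, no filter). Python 3.11.15, numpy 2.4.6, pandas 2.3.3 and matplotlib 3.10.9 served for the rest. The genes and lists were chosen with earlier results of these data known. Values per array were given for NFE2L2, KEAP1, NQO1, HMOX1, genes called with or without control 2 and genes whose log2 fold change was 0.5 or more in size; the others are given by range. Of the other list, called genes were named, and SLC7A11 and the other uncalled genes named were added after their values were seen. On simulated arrays of 18132 genes, 200 genes were changed and noise was drawn independently for each gene. There limma called 37.3% of changes of 0.5 on the log2 scale and 92.5% of changes of 1. Alternatives are given in the closing section.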

Additional observations from a re-analysis of the deposited data

How the results depend on the processing

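The count of 2 called genes among the 35 was within 1.5 times under 6 alternatives (replicate number as a block, common median, repeated quantile normalization, lowest 25% of genes left out, mean of probe sets, no probe sets ending in _x_at or _s_at) and under log2(intensity + 16). It was 4 with an intensity trend, 9 with array weights and 4 with the lowest 50% of genes left out, and ran from 1 to 13 without 1 array. Upward calls, 0 with the settings of the report, were 4 with array weights (GPX1, PRDX1, PGD and MGST1) and 1, MGST1, each with the trend, with the lowest 50% left out and under log2(intensity + 16), at limma adjusted p from 0.0207 to 0.0369 for MGST1. AKR1C2 lost its call under log2(intensity + 16), at -0.45 (limma adjusted p = 0.0843). TKT was called with an intensity trend, array weights, repeated quantile normalization, the lowest 25% or 50% of genes left out and log2(intensity + 16), at limma adjusted p from 0.0196 to 0.0479. The other list's count of 7 was 19 with array weights, 3 with the mean of probe sets, 4 without _x_at and _s_at probe sets, and 1 to 24 without 1 array. Over all genes 1420 became 3103 with array weights and 324 to 3732 without 1 array. MAP4K5 kept its direction and call in all alternatives run. Signs turned for TXNRD1 (-0.012 with the mean of probe sets, -0.17 without _x_at and _s_at probe sets), PRDX6 (0.14), TKT (0.0086) and HMOX1 (-0.013) with the mean of probe sets, GSTP1 (0.023 with array weights, 0.011 with a common median) and, without 1 array, for GCLC (-0.017 to 0.017), TXNRD2 (-0.20 to 0.043), NQO1 (-0.21 to 0.0020) and GSTP1 (-0.067 to 0.050); none of these values was called, and the cause was not tested. The replicate numbers are shared only in name: deviations of same-numbered arrays correlated at -0.08, 0.02 and 0.06, and with the number as a block 2 of the 35, 8 of the other list and 1188 of all genes were called, with GLRX no longer called (limma adjusted p = 0.0953). NFE2L2 and GSS were further called downwards with array weights (limma adjusted p = 0.0221 and 0.0476). Differences from each control array alone were added after the data were seen and carry no test. GPX2 and GPX3 had no value with the lowest 25% of genes left out, nor had they, AKR1B10, AKR1C1 and HMOX1 with the lowest 50% left out, and FTL, GPX1, GSK3B, SRXN1 and TXN had none without _x_at and _s_at probe sets. In simulation only 37.3% of changes of 0.5 on the log2 scale were called at this number of arrays, so differences of that size or smaller could be missed. The simulation changed 200 genes, where 1420 were called in the data, so the rate in the data can differ.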
